A study of Mus musculus with 2 samples.

Results

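Cluster 12 of the deposited clustering held 324 of 13683 thymocytes and was the most RNA-rich of the 19 clusters, with a median of 20857.5 unique molecular identifiers (UMIs, each standing for 1 captured mRNA molecule) per cell. Its members were all cells that the authors' metadata table assigned to this cluster at resolution 1.5, and the same 324 cells formed a single cluster at resolutions 1.8 and 2. The cells came from whole thymus of 6-week-old mice in which both Cdc42 alleles were floxed (Cdc42f/f). WT was Cdc42f/f without Cre, and KO was Cdc42f/f CD4Cre, in which the CD4 promoter drives Cre recombinase from a stage of thymocyte development onward; thymocytes of 5 littermates were pooled into 1 library for each genotype. Cdc42 is a small GTPase that organizes actin and cell polarity. Since each genotype was a single library, no test between WT and KO was possible: counts are given with 95% intervals that cover counting error only, and each cell is a member of its library and not a replicate. Genes were themselves used to make the clusters, so the comparisons between clusters are descriptions with no test.

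Thymocytes pass through a burst of division before they become resting CD4+CD8+ (double-positive, DP) cells. Cells that have made a working T-cell receptor β chain divide rapidly as they leave the double-negative (DN) stage, then stop dividing and rearrange the receptor α chain with the Rag recombinase. Proliferating cells copy their DNA with the MCM helicase, the PCNA sliding clamp and enzymes that make nucleotides, package the new DNA with replication-dependent histones, and later turn on the kinases, kinesins and cyclin B of G2 and mitosis. A cell that grows before it divides also makes ribosomes, under the influence of the transcription factor Myc.

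The WT library held 6115 cells with 29706197 UMIs, and the KO library 7568 cells with 37920214 UMIs. Cluster 12 contributed 138 WT cells with 2942387 UMIs and 186 KO cells with 4354799 UMIs. Its median depth was 19013 UMIs per WT cell and 22445 per KO cell, and single cells ranged from 3132 to 47064. Cluster 18, the next deepest, had a median of 17934.5. UMI number stands here for RNA captured, and cell size was not measured. In the series 17 cell barcodes occurred in both libraries, and 1 cell of cluster 12 carried such a barcode. The library of each cell was read from WT or KO in its deposited name, which is prefixed Cdc45 where the sample labels read cdc42, so the direction of every comparison between genotypes rests on those names. The clusters set beside it were cluster 10 (232 WT and 231 KO cells), cluster 11 (177 and 188) and cluster 13 (139 and 132). In cluster 13, genes of G2 and mitosis took 2.72% of UMIs in WT and 3.01% in KO. Its DNA replication genes took 0.182% and 0.181%, near the 0.137% and 0.140% of cluster 0, which is described below.

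Cluster 12 made up 2.26% of WT cells (exact 95% interval, 1.90 to 2.66) and 2.46% of KO cells (2.12 to 2.83). The KO share was 1.09 times the WT share, with an interval from 0.869 to 1.37 that holds 1. Among the cells of clusters 10 to 13 only, it held 20.1% in WT and 25.2% in KO.

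The label of this cluster was proliferating thymocytes, with H1f5 and Mki67 as its markers. Their levels describe the cells and do not test the label. H1f5, the gene of the replication-dependent linker histone H1.5 (GRCm38.p6 chromosome 13, 21779832 to 21780625), stood at 5603 counts per 1000000 UMIs of the cluster and library (CPM) in WT and 4994 in KO. Cells with at least 3000 UMIs were thinned to that number. All cells of cluster 12 were deep enough, but only the 237 WT and 513 KO cells of cluster 0 that reached this depth entered. Among these, H1f5 was detected in 100% of cluster 12 cells of each genotype, against 29.5% of WT and 28.8% of KO in cluster 0. Cluster 0 stood at 3310 CPM of Rag1 in WT and 3063 in KO. Mki67, the proliferation antigen Ki-67 (GRCm38 chromosome 7, 135689784 to 135716361), stood at 780 CPM in WT and 872 in KO, and thinned cells carried it in 81.2% and 84.4% of cases against 2.11% and 2.34% in cluster 0. All 10 proliferation markers on the list (H1f5, Mki67, Top2a, Pcna, Mcm5, Cdk1, Birc5, Tyms, Rrm2 and Stmn1) exceeded 100 CPM in both libraries. The same held in clusters 10 and 11. The markers summed to 14012 CPM in WT and 13430 in KO here, against 20134 and 18652 in cluster 10 and 5886 and 5335 in cluster 11. Thinned cells of cluster 10 carried Mki67 in 96.9% of WT and 97.4% of KO cases. Tyms, thymidylate synthase, was highest of all 19 clusters here in both, at 568 CPM in WT and 523 in KO. The T-lineage genes Cd3e, Cd3d and Cd3g together gave at least 10 UMIs in 92.8% of WT and 93.5% of KO cells.

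The DP program was present at a low level relative to the resting DP cells. Cd8a, a chain of the CD8 coreceptor, was 498 CPM in WT and 447 in KO, against 1796 and 2015 in cluster 0. Cd4 was 42.1 and 33.8 CPM, and Rag1, a subunit of the recombinase, was 139 CPM in both libraries. Thinned cells carried Cd4 in 12.3% of WT and 12.4% of KO cells, against 84.0% of the thinned cells of cluster 0 in either genotype. Without thinning and over all cells, the WT and KO shares were 41.3% and 40.9% in cluster 12 and 73.5% and 80.9% in cluster 0. The 7 markers of the DN stage at β-selection summed to 209 CPM in WT and 289 in KO, above the 77.9 and 99.6 of cluster 0 and below the 1688 and 2344 of cluster 14, where they were highest. Il2ra (CD25) stood at 17.7 CPM in WT and 34.7 in KO, against 511 and 758 in cluster 14, and Ptcra, the pre-T-cell receptor α chain, at 84.3 and 99.7 against 307 and 425. Markers of signalled and mature thymocytes summed to 126 and 53.7 CPM in WT and to 104 and 52.1 in KO.

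Against all other cells of the series, the 10 leading genes of cluster 12 were Bcat1, Mybl2, Lhx2, Ccne2, Tk1, Aunip, Mcm10, Pclaf, Msantd3 and Syce2. Their mean level per 10000 UMIs was 18.9 to 23.8 times that of the other cells. Several act in the entry into or conduct of DNA replication: Ccne2 is a cyclin E, Mcm10 helps start replication forks, Pclaf binds PCNA and Tk1 makes thymidine monophosphate. Mybl2 is the cell-cycle factor B-Myb. None of the 10 was a replication-dependent histone gene, and 1 of them, Lhx2, differed by 0.5 or more on the log2 scale between KO and WT (0.67, interval -0.31 to 1.81).

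**Figure D1:**
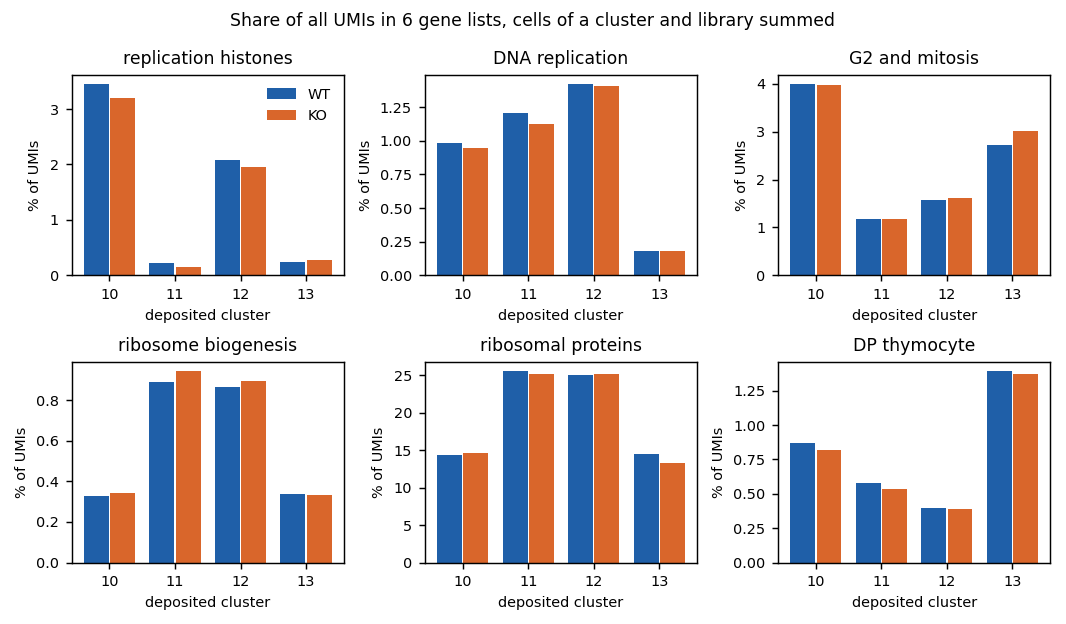
Percent of all UMIs that fell on 6 gene lists (vertical axes, starting at 0) in clusters 10, 11, 12 and 13, with 1 bar per library, WT and KO. Cluster 12 carried histone UMIs near 2% beside ribosomal protein UMIs near 25%, while cluster 10 was high in the first and low in the second and cluster 11 the other way round.

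Genes of DNA replication, when summed, stood higher in cluster 12 than in clusters 10, 11 and 13. The 57 genes on this list, which includes the MCM helicase, PCNA, the clamp loader, the polymerases and nucleotide reduction, took 1.42% of UMIs in WT and 1.41% in KO. The corresponding shares were 0.981% and 0.945% in cluster 10, 1.21% and 1.12% in cluster 11, and 0.182% and 0.181% in cluster 13. A level at least 2 times higher in cluster 12 in both libraries was reached by 12 of the 57 genes against cluster 10, where 5.43% of 10607 genes reached it, by 2 against cluster 11, where 1.42% did, and by 56 against cluster 13, where 9.27% did. In the other direction, 0, 1 and 0 of the 57 were at least 2 times lower, against 5.35%, 1.48% and 15.1% of all genes. The median gene of the list had a log2 ratio to cluster 11 of 0.22 in WT and 0.31 in KO, beside -0.06 and -0.09 for all genes.

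Pcna, the sliding clamp, was 1077 CPM in WT and 1115 in KO, against 625 and 679 in cluster 10, 702 and 668 in cluster 11, and 70.3 and 72.7 in cluster 13. Mcm6, a helicase subunit, was 461 and 437 CPM, level with cluster 11 (438 and 425) and above cluster 10 (160 and 147). Both libraries thus put the clamp highest in cluster 12, whereas the helicase subunit was shared with cluster 11. The E cyclins bring cells into S phase. Ccne1 was 90.4 and 83.6 CPM, against 41.4 to 53.4 in clusters 10 and 11 and 0.991 and 0.887 in cluster 13. Ccne2 was 119 and 113 CPM, near the 101 and 82.0 of cluster 11 and above the 43.3 and 35.3 of cluster 10.

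Replication-dependent histones separated cluster 12 from clusters 11 and 13. These histones are made in step with DNA synthesis, and most of their mRNAs end in a stem-loop rather than a poly(A) tail, so an assay primed on poly(A) counts them incompletely. They took 2.08% of UMIs in WT and 1.96% in KO, against 3.45% and 3.19% in cluster 10, 0.214% and 0.157% in cluster 11, and 0.245% and 0.277% in cluster 13. Of 59 histone genes compared, 53 were at least 2 times higher than in cluster 11 and 44 than in cluster 13 in both libraries, while 19 were at least 2 times lower than in cluster 10. The shares of all genes in these 3 comparisons were 1.42%, 9.27% and 5.35%. H1f5 itself was 6703 and 5535 CPM in cluster 10, 354 and 217 in cluster 11, and 153 and 212 in cluster 13. Among the others, H4c4 was 2384 CPM in WT and 2595 in KO, and H1f4 was 2509 and 2136. Many histone genes are near-identical copies, so single members of the H2A, H2B, H3 and H4 groups may share reads and are less certain than the list's total.

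Genes of G2 and mitosis were lower than in clusters 10 and 13. The 60 genes took 1.57% of UMIs in WT and 1.61% in KO, against 3.99% and 3.97% in cluster 10, 2.72% and 3.01% in cluster 13, and 1.17% in both libraries of cluster 11. At least 2 times lower levels in both libraries were found for 53 of the 60 against cluster 10 and for 25 against cluster 13, and 0 were that much higher than in either. Against cluster 11, 18 were higher and 2 lower. Of all genes, 5.35% were lower than in cluster 10 and 15.1% than in cluster 13. Against cluster 11, 1.42% of all genes were higher and 1.48% lower. Cenpf, a kinetochore protein, was 224 CPM in WT and 237 in KO, against 1145 and 1116 in cluster 10 and 1488 and 1596 in cluster 13. Top2a, the topoisomerase that untangles chromosomes, was 1501 and 1590 CPM, between the 3324 and 3325 of cluster 10 and the 488 and 470 of cluster 11. Of 15 genes of cytokinesis, the final splitting of the cell, 8 were at least 2 times lower than in cluster 10 (5.35% of all genes), 3 were higher than in cluster 11 (1.42%) and 2 were lower than in cluster 13, which is no larger a share than the 15.1% of all genes.

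**Figure D2:**
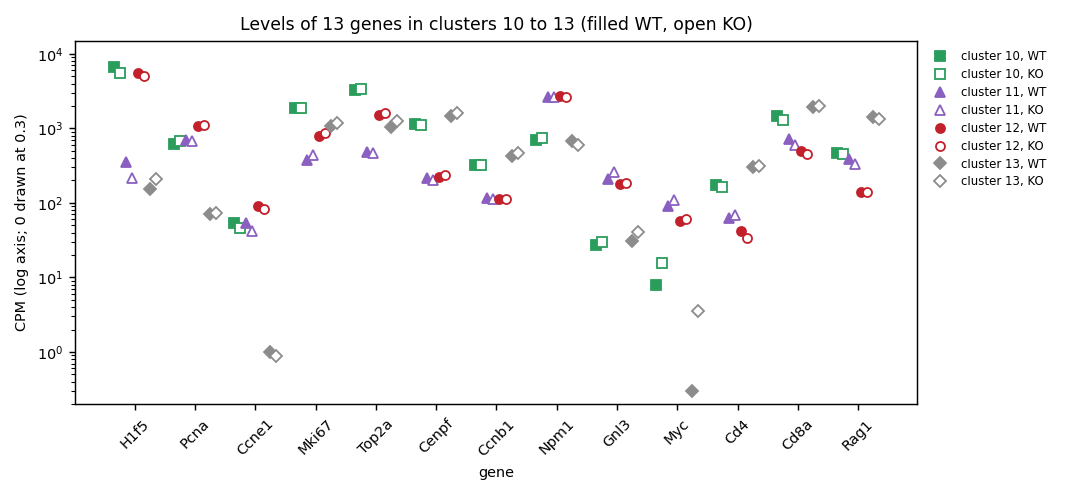
Level of 13 genes (CPM, log axis) in clusters 10, 11, 12 and 13, with WT and KO as separate points. The WT and KO points of a cluster lie close together for nearly all genes, and cluster 12 joins the high H1f5 of cluster 10 to the high Npm1 of cluster 11.

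Promoter sequences show what these gene groups carry next to their start sites. E2F factors switch on genes of S phase through a site written here as TTTCCCGC, TTTCGCGC, TTTGCCGC or TTTGGCGC. Many genes of G2 and mitosis carry the cell cycle homology region (CHR), searched as TTTGAA or TTCGAA, and CCAAT boxes, searched as CCAAT, are common in histone and mitotic promoters. Each word was sought on both strands of RefSeq windows of 300 bases (250 before and 50 after a start, GRCm38.p6). An E2F word was present for 18 of 44 DNA replication genes with a window (40.9%), for 2 of 52 G2 and mitosis genes (3.85%) and for 8 of 47 replication-dependent histone genes (17.0%), beside 2.26% of all 32851 windows and 5.46% of the genes measured in the 4 clusters. A CHR word was present for 39 of 52 G2 and mitosis genes (75%), 20.5% of DNA replication genes and 44.7% of histone genes, beside 19.2% of all windows. CCAAT was present for 41 of 47 histone genes (87.2%), 78.8% of G2 and mitosis genes and 63.6% of DNA replication genes, beside 37.4% of all windows. Among genes measured in the 4 clusters, counted per gene as the lists were, CHR stood at 17.0% and CCAAT at 44.4%. A match describes the letters in the window and is not evidence of binding.

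Printed below are the 200 bases before the start, in the direction of transcription, for the marker H1f5, for Hells and Rfc3 (E2F, DNA replication) and for Top2a (CHR, mitosis). Hells, Rfc3 and Top2a had most UMIs in cluster 12 among the candidates of their list, 6 for E2F and 13 for CHR. A candidate held the word in this stretch and had a single RefSeq window, with its start inside a GENCODE transcript. Genes of a single chromosome were left out. The sequences are shown so that the arrangement of the 3 words can be compared between a histone, a pair of replication genes and a mitotic gene. Capitals mark the words, with ATTGG and TTCAAA being CCAAT and the CHR word TTTGAA on the other strand. H1f5 lies at chr13:21780626-21780825 (minus strand), Hells at chr19:38930790-38930989 (plus), Rfc3 at chr5:151651209-151651408 (minus) and Top2a at chr11:99024190-99024389 (minus).
H1f5: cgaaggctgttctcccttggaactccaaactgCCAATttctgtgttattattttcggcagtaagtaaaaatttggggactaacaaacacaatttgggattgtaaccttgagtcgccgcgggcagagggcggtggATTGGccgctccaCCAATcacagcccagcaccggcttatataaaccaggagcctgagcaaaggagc
Hells: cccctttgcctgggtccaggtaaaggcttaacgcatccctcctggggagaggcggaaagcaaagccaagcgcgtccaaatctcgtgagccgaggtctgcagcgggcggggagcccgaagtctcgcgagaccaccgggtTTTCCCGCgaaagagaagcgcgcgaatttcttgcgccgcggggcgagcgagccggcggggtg
Rfc3: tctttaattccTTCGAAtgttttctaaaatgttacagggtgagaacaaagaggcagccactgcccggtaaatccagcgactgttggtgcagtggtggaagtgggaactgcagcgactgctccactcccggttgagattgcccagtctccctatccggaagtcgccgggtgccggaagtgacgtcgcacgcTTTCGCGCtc
Top2a: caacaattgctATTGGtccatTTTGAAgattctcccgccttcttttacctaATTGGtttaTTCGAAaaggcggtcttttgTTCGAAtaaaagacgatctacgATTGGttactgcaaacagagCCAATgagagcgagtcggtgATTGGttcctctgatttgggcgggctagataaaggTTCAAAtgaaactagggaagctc

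H1f5 had 3 CCAAT words and neither of the others. The Hells word TTTCCCGC begins 62 bases before the start, and the Rfc3 word TTTCGCGC begins 10 bases before it, with TTCGAA 189 bases before. Top2a had 4 CHR and 5 CCAAT words. Hells encodes a chromatin remodeller of dividing cells and Rfc3 a subunit of the clamp loader. Of the 12 genes that stood highest in cluster 12 against all 3 neighbours (given further on), 10 had a window. An E2F word was held by 0 of these, a CHR word by 2 and CCAAT by 4. The shares among genes measured in the 4 clusters were 5.46%, 17.0% and 44.4%. With 10 genes, these counts cannot show a difference from those shares.

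Genes for making ribosomes and precursors separated cluster 12 from clusters 10 and 13 and joined it to cluster 11. Ribosome biogenesis genes took 0.868% of UMIs in WT and 0.895% in KO, against 0.330% and 0.342% in cluster 10, 0.890% and 0.943% in cluster 11, and 0.339% and 0.332% in cluster 13. Of 37 such genes, 30 were at least 2 times higher than in cluster 10 in both libraries and 26 than in cluster 13, and 0 were past that fold against cluster 11 in either direction. Npm1, the nucleolar chaperone nucleophosmin, was 2712 CPM in WT and 2637 in KO, against 703 and 754 in cluster 10 and 2652 and 2636 in cluster 11. Ribosomal protein genes took 25.1% of UMIs in both libraries, against 14.4% and 14.6% in cluster 10 and 25.5% and 25.2% in cluster 11. Single ribosomal protein genes differed less, with 12 of 86 higher by the fold than in cluster 10 and 18 than in cluster 13. Of all genes, 5.43% were this much higher than in cluster 10 and 9.27% than in cluster 13.

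Myc, the transcription factor of cell growth, was 57.8 CPM in WT and 61.8 in KO, between the 90.6 and 108 of cluster 11 and the 7.85 and 15.9 of cluster 10. Srm, spermidine synthase, was 135 and 129 CPM against 4.71 and 3.01 in cluster 10 and 2.97 and 3.55 in cluster 13. Of 26 genes of nucleotide and one-carbon synthesis, 15 were at least 2 times higher than in cluster 10 and 19 than in cluster 13, and 0 were past the fold against cluster 11. Paics, an enzyme of purine synthesis, was 245 and 240 CPM against 70.3 and 82.3 in cluster 10. Chaperones were past the fold for 6 of 19 against cluster 10 and 7 against cluster 13, and glycolysis for 4 and 6 of 15, each time with higher levels in cluster 12. Beside these lists, 5.43% of all genes were this much higher than in cluster 10 and 9.27% than in cluster 13. Cdk4, the G1 kinase, followed the same order at 448 and 453 CPM against 148 and 174 in cluster 10 and 377 and 388 in cluster 11.

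DP genes were lower than in clusters 10 and 13. The list took 0.398% of UMIs in WT and 0.393% in KO, against 0.872% and 0.821% in cluster 10, 0.580% and 0.538% in cluster 11, and 1.39% and 1.37% in cluster 13. Of 16 DP genes, 9 were at least 2 times lower than in cluster 10, 1 than in cluster 11 and 13 than in cluster 13, and 0 were higher than in any of them. The shares of all genes that were lower were 5.35%, 1.48% and 15.1%. Rag1 at 139 CPM lay below the 461 and 458 of cluster 10, the 394 and 333 of cluster 11 and the 1438 and 1337 of cluster 13. Genes of Cdc42 and actin regulation were past the fold for 0 of 39 against clusters 10 and 11 and were lower for 8 of 39 against cluster 13, where 15.1% of all genes were, so this count lies near that of genes at large.

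Over all 10607 genes with at least 50 UMIs in the 4 clusters, 576 were at least 2 times higher and 568 at least 2 times lower than in cluster 10 in both libraries. Against cluster 11 the numbers were 151 and 157, and against cluster 13 they were 983 and 1605. Scaling to UMIs outside ribosomal protein and mitochondrial genes gave 795 higher and 347 lower against cluster 10 and 1228 and 1192 against cluster 13, and TMM scaling gave 1546 and 876 against cluster 13. The split between higher and lower genes therefore depends on the scaling, whereas the direction of the replication, histone, mitotic, ribosome biogenesis and DP lists against clusters 10 and 13 was the same under each of them. The counts within lists shifted: totals without ribosomal protein and mitochondrial genes put 20 of 57 DNA replication genes, 38 of 86 ribosomal protein genes and 0 histone genes above cluster 10 by the fold, and 11 histone genes below it. TMM put 58 of 86 ribosomal protein genes above cluster 13. Median log2 ratios of all genes were -0.13 in WT and -0.16 in KO against cluster 10 and -0.25 and -0.29 against cluster 13, and the mean of the 2 libraries moved from -0.27 to 0.09 against cluster 13 under TMM.

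Few genes set cluster 12 apart from all 3 neighbours at once. A level 2 times higher than in every one of them in both libraries was reached by 1 gene, Dqx1 (13.9 CPM in WT and 19.7 in KO), 0.00943% of those tested, and 52 genes (0.49%) were 2 times lower than in each. The 12 genes with the largest ratio to the nearest neighbour were Pold2, Tubb3, Ccne1, Mybl2, Nsg1, Slc25a13, Tk1, Dph6, Nelfe, Tmem107, Nrp1 and Nt5dc2, with log2 ratios to that neighbour of 0.64 to 0.85. Their order depended on the processing: over the alternatives the lowest value was -0.75 for Tubb3, 0.10 for Pold2, 0.22 for Dph6, 0.31 for Tmem107, 0.33 for Nt5dc2 and 0.35 for Slc25a13, and Tubb3 alone of the 12 changed sign. Pold2, a subunit of DNA polymerase δ, was 110 CPM in WT and 116 in KO, against 45.4 to 60.9 in clusters 10 and 11. Mybl2 was 69.7 and 54.0 CPM against 25.4 to 32 in those clusters, and Tk1 was 219 and 202 against 84.8 to 131. Nrp1, the semaphorin receptor neuropilin-1, was 56.4 and 59.0 CPM against 23.2 to 35.9 in clusters 10 and 11 and 10.9 and 37.2 in cluster 13.

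The 12 genes lowest against all neighbours were E430002N23Rik, Castor2, A930002I21Rik, BC028471, Emp1, Slc7a11, Tmem71, Gm15340, Cep89, A130023I24Rik, C230096K16Rik and Gm20033, with log2 ratios to the nearest neighbour of -1.96 to -1.32. Slc7a11, the cystine transporter, was 6.12 CPM in WT and 4.82 in KO, against 13.9 to 27.9 in clusters 10 and 11. Emp1, a membrane protein, was 2.04 and 2.99 CPM against 8.39 to 20.5. A930002I21Rik, BC028471 and Gm15340 are annotated as long noncoding RNAs.

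Cells within cluster 12 were not uniform. Sorted by UMIs per cell into quartiles of 81 cells, they ran from 3132 to 13715 UMIs in the lowest quartile to 31118 to 47064 in the highest. H1f5 stood at 7855, 6524, 4974 and 4115 CPM in the 4 quartiles from the lowest to the highest. Ccne2 went from 197 CPM in the lowest quartile to 68.4 in the highest and Pcna from 1486 to 875. Ccnb1, cyclin B1 of mitosis, went the other way from 65.2 to 164 CPM, and so did Cenpf from 128 to 292. Ccnb1 and Cenpf did not stand for the mitotic genes as a group: the G2 and mitosis list took 1.65%, 1.59%, 1.56% and 1.61% of UMIs in the 4 quartiles, and Top2a was 1691 CPM in the lowest and 1402 in the highest.

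The same ordering held for the DP and growth genes. Cd8a was 924 CPM in the lowest quartile and 254 in the highest, and Rag1 was 262 and 77.1. Myc was 20.9 and 93.2 CPM, ribosome biogenesis took 0.590% and 1.07% of UMIs, and ribosomal proteins took 20.5% and 27.3%. In WT alone Myc was 12.1 and 99 CPM in these quartiles and Cd8a was 993 and 264. In KO alone Myc was 30 and 89.7 CPM and Cd8a was 854 and 248, so each library gave the same order. Depth per cell moves with all of these genes, and its part in the ordering was not tested.

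**Figure D3:**
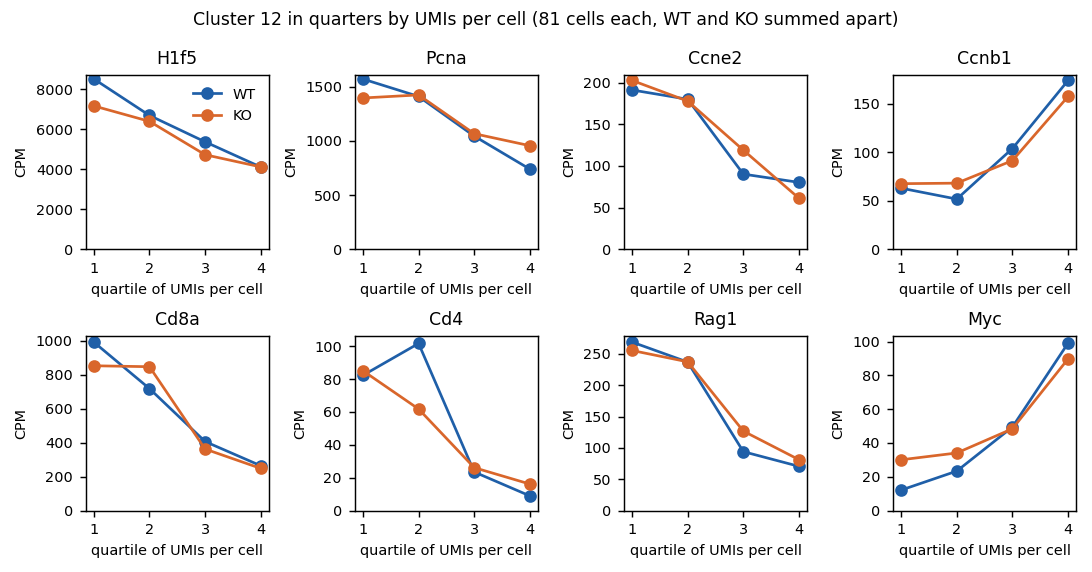
Level of 8 genes (CPM, axes from 0) in cluster 12 cells split into quartiles of 81 cells by UMIs per cell, with WT and KO as separate lines. H1f5, Ccne2 and Cd8a are lower and Ccnb1 and Myc higher in the deepest than in the shallowest quartile in both libraries.

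Thinning each cell to 3000 UMIs kept part of this structure. Over the 324 cells, the thinned share of histone UMIs correlated with that of DNA replication genes (Spearman rho 0.47, Pearson r 0.45) and inversely with that of ribosome biogenesis genes (rho -0.50, r -0.48). The DNA replication and the G2 and mitosis shares were weakly inverse (rho -0.16, r -0.21). The cells share 2 libraries and the shares one total, so these values only describe the cells. A split by histone share was made without thinning. Myc stood at 104 CPM in the quartile with the lowest histone share and 4.42 in the quartile with the highest, and Cd8a at 263 and 869. The median depth of these quartiles was 30021 and 13270 UMIs, so this split also follows depth.

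A minority of cells carried transcripts that were low in the rest of the cluster. At least 10 UMIs of the T-cell receptor γ constant genes Trgc1, Trgc2 and Trgc4 were found in 11 of 138 WT cells (7.97%, 4.05 to 13.8) and 21 of 186 KO cells (11.3%, 7.13 to 16.7). These 32 cells had a median of 30601.5 UMIs. They carried 43.7 CPM of Cd8a against 546 in the 286 cells left after all cells described here are set aside, and 157 CPM of Il2ra against 7.33. Hes1, a target of Notch, stood at 70.5 CPM against 3.74, and H1f5 at 3298 against 5545. Trdc, the δ constant gene, was 508 CPM in them and 269 in the others, so it was not restricted to them.

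At least 10 UMIs of the dendritic cell list or of the B cell markers Cd79a, Cd79b, Igkc and Ms4a1 were found in 6 cells, 2 of WT and 4 of KO. A single WT cell with 42827 UMIs held 1648 of the 1716 UMIs that WT cells of cluster 12 had on the dendritic list. The 4 defining dendritic markers H2-Aa, H2-Ab1, H2-Eb1 and Itgax summed to 323 CPM in WT and 12.9 in KO. Itgax itself went the other way, with 1 UMI in WT and 6 in KO. So did Siglech of the longer dendritic list, with 0 and 23 UMIs. Cells with at least 10 UMIs of that list numbered 2 in WT and 2 in KO. The B cell markers summed to 24.5 and 43.6 CPM with Ms4a1 at 0 in both libraries, the 5 macrophage markers to 29.2 and 12.4 CPM with C1qa, C1qb and C1qc at 0 in KO, and the erythroid markers Hbb-bs and Hba-a1 to 3.06 CPM in WT and 0 in KO. Thymic epithelial markers summed to 16.0 and 24.8 CPM, with Krt5, Krt8 and Psmb11 at 0. Together the γ-chain, dendritic and B cells came to 38, and the counts between genotypes are also given without them.

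The comparison of genotypes sets the KO library beside the WT library in these cells. With a single pooled library for each genotype, an effect of losing Cdc42 cannot be told from any other difference between the libraries. Cdc42 itself (GRCm38 chromosome 4, 137319696 to 137357720) was 373 CPM in WT and 305 in KO, a log2 ratio of -0.29 (-0.40 to -0.17), and it was -0.20, -0.25 and -0.20 in clusters 10, 11 and 13. The KO library was lower, but most of the transcript signal remained. Counts taken at the 3′ end of a gene cannot tell a transcript with deleted exons from an intact one. Deletion of Cdc42 in these cells was therefore not tested.

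Of 8085 genes with at least 50 UMIs in cluster 12, 374 (4.63%) were higher by 0.5 or more in KO on the log2 scale and 208 (2.57%) were lower by that much. The counting interval lay above 0 for 193 of the first and below 0 for 114 of the second. In simulated counts, 4.25% of genes with no change were past 0.5 in either direction from counting error alone. A gene past the fold is therefore not by itself a difference between the libraries. Without the 38 cells 323 of 7622 genes were higher and 194 lower. The median gene had a log2 ratio of 0.02, and 92.8% of genes lay within 0.5 of 0. Corresponding percentages within 0.5 were 92.5%, 91.7% and 89.1% in clusters 10, 11 and 13.

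The cell-cycle genes lay close to equal between genotypes. Of 57 DNA replication genes, 0 were past the fold in either direction, with a list median of -0.02. Of 60 genes of G2 and mitosis, 2 were higher in KO and 0 lower, with a median of 0.04. One was Pttg1, securin, at 17.7 CPM in WT and 35.8 in KO, and its log2 ratio of 1.01 stood beside 3.08, 1.96 and 2.02 in clusters 10, 11 and 13. Of 53 histone genes, 2 were higher and 1 lower, with a median of -0.07, and H1f5 had a log2 ratio of -0.17. The median share of UMIs per cell on DNA replication genes was 1.53% in WT and 1.5% in KO, and on G2 and mitosis genes 1.55% and 1.53%.

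Growth genes were also near equal. Ribosome biogenesis was higher in KO for 2 of 37 genes and lower for 0, with a median of 0.05, and 0 of 16 DP genes were past the fold. Rpl38 and Rps28 were the ribosomal protein genes above 0.5, at 0.60 (0.54 to 0.66) and 0.52 (0.46 to 0.58), and they were 0.68 and 0.50 in cluster 10. Among 16 interferon and MHC class I genes 2 were higher, Isg15 (0.74) and Irf1 (0.59), with a list median of 0.10 beside 0.36, 0.12 and 0.25 in clusters 10, 11 and 13. Genes of Cdc42 and actin regulation were lower in KO for 1 of 38 and higher for 0, with a median of -0.04. Actb, β-actin, was 4809 CPM in WT and 4510 in KO (log2 ratio -0.09), and Tmsb4x, thymosin β4, was 2145 and 1575 (-0.45). Tmsb4x was above 0 in the other 3 clusters (0.22, 0.09 and 0.18) and was 0.09 in cluster 12 without the 38 cells.

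Cholesterol synthesis genes were lower in KO more often than genes at large. Of 19 genes with at least 50 UMIs, 8 were lower by 0.5 or more and 0 higher, with a list median of -0.35, against 2.57% of all genes and a median of 0.02. Msmo1, a sterol demethylase (GRCm38 chromosome 8, 64718139 to 64733792), was 29.6 CPM in WT and 12.6 in KO, a log2 ratio of -1.22 (-1.74 to -0.72). Sqle, squalene epoxidase, was 34.0 and 19.3 CPM (-0.82, -1.25 to -0.38). Hmgcs1, a synthase early in the pathway, was 53 and 35.6 CPM (-0.57, -0.90 to -0.24).

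Also past the fold were Fdft1 (-0.55), Insig1 (-0.54), Dhcr7 (-0.51) and Mvd (-0.51), of which Insig1 and Mvd had counting intervals that hold 0. Over the 19 genes the ratios ran from -1.22 to 0.24, with 3 above 0. Srebf2, the transcription factor of the pathway, was 52.0 and 52.4 CPM (0.01), and Mvk was 0.07. In the other clusters 0 of 18 genes of this list were lower by 0.5 in cluster 10 (median -0.12), 3 of 19 in cluster 11 (-0.19) and 2 of 9 in cluster 13 (-0.45), so lower medians were not particular to cluster 12. The 8 became 2 when levels were averaged over cells rather than summed, with a median of -0.26, and 2 with a minimum of 200 UMIs, with a median of -0.35. Without the 38 cells 6 of 18 were lower, with a median of -0.35.

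**Figure D4:**
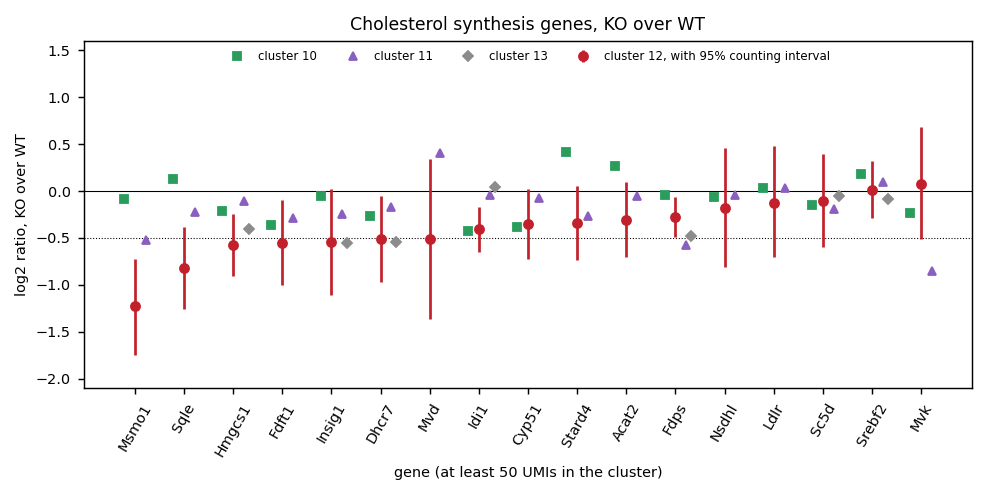
Log2 ratio of KO over WT in cluster 12 for 17 of the cholesterol synthesis genes with at least 50 UMIs (points with 95% counting intervals), with the ratios in clusters 10, 11 and 13 as smaller points. The other 2 genes of the 19, of which the list's highest ratio (0.24) is one, are not drawn. Most points of cluster 12 lie below 0, from -1.22 for Msmo1 to 0.07 for Mvk.

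Among the 24 genes with the largest ratios, some differed in every cluster and many were carried by a few cells. Gm45315, a processed pseudogene (GRCm38 chromosome 7, 12797529 to 12797861), had 17 UMIs in WT and 809 in KO, a log2 ratio of 4.97 (4.32 to 5.79), and 5.09, 5.61 and 4.53 in clusters 10, 11 and 13. Ctsl, the lysosomal protease cathepsin L, had 1606 UMIs in WT and 318 in KO (-2.90), and -3.69, -3.34 and -3.60 in the others. Epsti1, an interferon-induced gene, was 1.11 in cluster 12 and 2.08, 1.48 and 2.51 elsewhere, and the mitochondrial gene mt-Nd3 was 1.11 and 1.15, 1.35 and 1.06. Arl3 was -1.29 and -1.15, -1.29 and -0.69. Reads of a processed pseudogene can come from its parent gene, so the gene behind Gm45315 is uncertain.

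Many of the remaining ratios rested on a handful of cells. Cd74, the MHC class II invariant chain, had 729 UMIs in WT and 6 in KO, with 722 of the WT UMIs in 1 cell, and H2-Eb1 had 242 and 1, with 236 in 1 cell. H2-Aa (-6.83) and H2-Ab1 (-3.81) belong to the same class. Cst3, an inhibitor of cathepsins, had 1080 and 632 UMIs (-1.34) with 699 in 1 WT cell, and was 0.05 without the 38 cells. Id2, an inhibitor of E proteins, had 93 and 17 UMIs (-2.98) with 70 in 1 cell, and was 0.63 without them. Nrgn had 129 and 46 UMIs (-2.04) and was -0.66 without them, and Ifi30 went from -1.62 to -0.78.

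On the KO side, Tyrobp, a signalling adaptor of myeloid and NK cells, had 18 and 105 UMIs (1.95) and was -0.53 without the 38 cells. Hes1 had 14 and 92 UMIs (2.11) and was 0.34 without them. Of 5 genes of the γδ T-cell list 3 were higher in KO, Trgc1 (1.03), Trgc2 (0.89) and Trgc4 (1.13). Cells with at least 10 UMIs of these 3 genes had shares of 7.97% in WT and 11.3% in KO with overlapping intervals, and leaving them out lowers these genes by construction. Akr1c13 had 28 and 100 UMIs (1.25), with 36 in 1 cell, and was 0.42 without them. Vpreb3, a pre-B-cell receptor gene, was 1.00 from 1 WT and 3 KO cells. Gm4632 (1.16) and Ocel1 (1.04) were the other genes among the 12 highest in KO, while Apoe (-1.24) and Msmo1 closed the 12 lowest. Apoe UMIs were spread over 43 WT and 33 KO cells and Msmo1 UMIs over 50 and 37, so neither rested on a few cells. In clusters 10, 11 and 13 the ratios of Apoe were 0.37, -0.10 and -0.75, and those of Msmo1 were -0.08, -0.53 and -0.39.

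**Figure D5:**
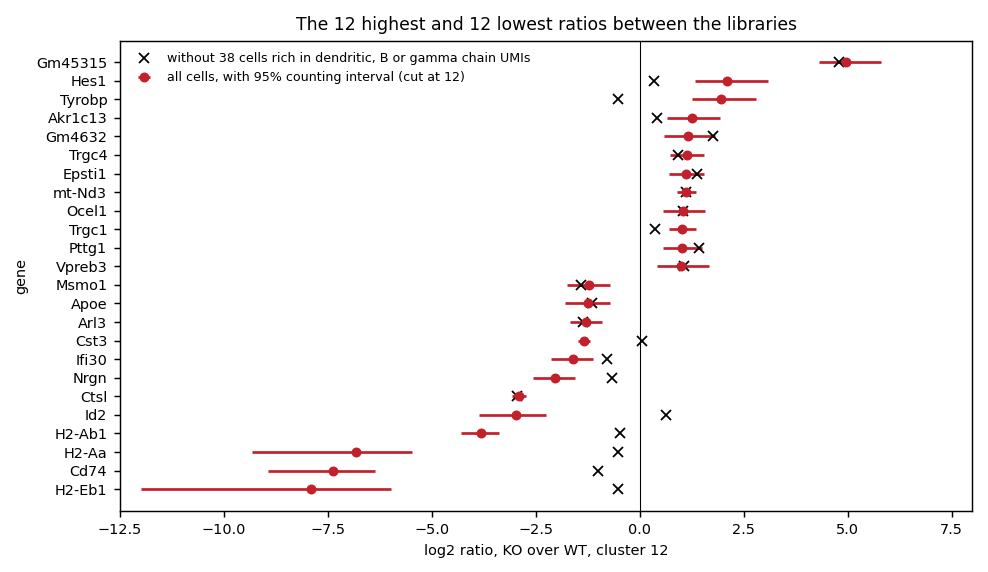
Log2 ratio of KO over WT in cluster 12 for the 24 genes with the largest ratios in either direction, over all 324 cells and without the 38 cells rich in γ-chain, dendritic or B cell UMIs. Gm45315 and Ctsl stay where they were, whereas Hes1, Tyrobp, Id2 and Cst3 move to near 0 or past it.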

How the data were processed

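Whole-thymus cells of 5 mice per genotype were pooled into 1 10x 3′ library each, sequenced, aligned to mm10 and counted with Cell Ranger 3.0.2 (STAR) and clustered with Seurat, per the submitters' processing notes and the study's methods. The authors deposited raw UMI counts per gene and cell for 20282 genes and a metadata table, whose cluster column was used. The metadata's mitochondrial percentage is 0 for every cell and was not used. The filter stated in the methods, 200 to 6000 genes per cell, removed no deposited cell. For each gene, the UMIs of all cells sharing a cluster and a library were added up and scaled to 1000000 over genes (CPM). Log2 ratios had 0.5 UMI added to each sum, and intervals are conditional binomial (exact Clopper-Pearson for shares) at 95%. UMIs remove amplification copies, and the intervals cover counting error only. Genes needed at least 50 UMIs, and a fold was a log2 ratio of 0.5 between libraries or of 1 in both libraries between clusters. With 1 library per genotype no p-value was computed. The depth was 29706197 UMIs in WT and 37920214 in KO, and rare transcripts at a few CPM are imprecise.

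The cluster, gene lists and comparisons were chosen with earlier results of these data known. Named genes were the markers, Cdc42, genes of the lists, the 10 leading genes, the 12 highest and 12 lowest genes of cluster 12 against all 3 neighbours (at least 100 UMIs, and a UMI in at least 10% of cells) and the 12 highest and 12 lowest in KO over WT (at least 100 UMIs). Dqx1 was named after its values were seen. Some genes of the marker lists were not analysed here. Single values of some list genes are not reported here, although the list counts and medians include them. The calculation was tested on simulated data, in which 95.0% (clusters) and 94.5% (libraries) of 200 genes with known changes were recovered with an interval on the right side of 0. Scrublet (scanpy 1.11.5) called 2 WT and 0 KO doublets automatically and so did not work, and the 6% of cells with the highest scores (366 WT and 454 KO) were left out only as an alternative. Other alternatives changed the scaling (edgeR 4.0.16 TMM and DESeq2 1.42.0 size factors, in R 4.3.3), the minimum count, the added count and the depth. Python 3.11.15 with numpy 2.4.6, scipy 1.17.1 and pandas 2.3.3 was used. Promoter windows and the positions of H1f5 and the printed sequences are from RefSeq GRCm38.p6, and other positions are from GENCODE vM21, which held 19797 of the 20282 gene names.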

Additional observations from a re-analysis of the deposited data

Results flagged for a closer look

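Id2, an inhibitor of E proteins, had opposite directions in neighbouring clusters. Its log2 ratio of KO over WT was -2.98 in cluster 12 (93 UMIs in WT and 17 in KO) and 0.74 in cluster 11 (24 and 51 UMIs). The difference between the clusters was not tested, since each rests on 1 library per genotype. In cluster 12, 70 of the 93 WT UMIs were in 1 cell.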

How the results depend on the processing

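No paired analysis was possible because each genotype was 1 library and the labels carry no replicate numbers. The share of cells in cluster 12 became 20.1% in WT and 25.2% in KO over clusters 10 to 13. Cells were also clustered anew without genes that differ between the libraries. The matching new cluster held 2.78% of WT and 2.83% of KO cells, and 297 of its 384 cells (77.3%) came from cluster 12. Genes higher in KO numbered 167 in thinned cells, 822, 47 and 3652 with minimums of 20, 200 and 1 UMI, and genes lower in KO 117, 528, 20 and 3253; fewer or more genes were tested under each. Against cluster 10, 301 (thinned) and 357 (200 UMIs) were higher, and 347 (totals without ribosomal protein and mitochondrial genes), 351 (thinned) and 376 (200 UMIs) lower. Against cluster 11, 270 (20 UMIs) and 58 (200 UMIs) were lower. Against cluster 13, 1546 were higher with TMM and 876 (TMM), 828 (thinned) and 1026 (200 UMIs) lower. Against all 3, 6 (20 UMIs) and 3 (without cells of other types) were higher and 34 (TMM), 82 (20 UMIs) and 28 (200 UMIs) lower. Outside ribosomal protein and mitochondrial UMIs, the share per cell was 2.12% in WT and 2.04% in KO for DNA replication and 2.07% and 2.10% for G2 and mitosis. Directions turned for the γδ T-cell list median (0.89; -0.32 with 1 UMI, -0.26 without the 38 cells, which were partly chosen by its genes), Tyrobp (-0.53 without them), Akr1c13 (-0.044 thinned), Id2 (0.79 thinned, 0.63 without them) and Cst3 (0.12 without the deepest 5% of cells, 0.093 without dendritic and B cells, 0.049 without the 38). The cause was not tested except where fewer cells or genes entered. Over all alternatives to the shares and gene counts, 90 of 121 values stayed within 1.5 times the reported count or within the counting interval of the reported share. The alternatives that leave out cells of other types were chosen after seeing the data. Depth limits genes at a few CPM, and 1 library per genotype leaves the spread between mice unmeasured.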
